A study of Mus musculus with 8 samples.

Results

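Barx1 and 9 other transcription factors of limb mesenchyme (Prrx1, Prrx2, Pitx1, Tbx4, Tbx5, Tbx15, Shox2, Meis1 and Meis2) were followed in cultured mouse bone marrow mesenchymal stem cells (MSCs) with and without a conditional deletion of Mettl3, the catalytic subunit of the m6A methyltransferase. The 10 genes were taken by name from the 47643 named genes of the deposited expression table. They were chosen by their WT and cKO counts, which had been seen. Their levels, and the calls of the fit for them, are therefore a description and not a test of these genes. Of the 10, 9 passed the filter on low counts and belonged to the 15327 genes that were fitted, whereas Tbx4 did not pass.

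RNA-seq libraries came from 2 WT samples, which were Mettl3fl/fl control littermates without Cre, and from 2 cKO samples, which were Prx1-Cre;Mettl3fl/fl. All were C57BL/6 cells flushed from the marrow of tibiae and femurs, expanded in culture and kept for 2 days in osteogenic medium with dexamethasone (100 nM), β-glycerophosphate (5 mM) and ascorbic acid (50 μg/ml). A further 4 samples of wild-type cells in the same medium, 2 inputs and 2 m6A immunoprecipitates, supplied the peak list. Prx1-Cre is driven by a limb enhancer of Prrx1, which is active in limb bud mesenchyme and not in blood cells, and Cre removes exons 2 and 3 of Mettl3. The sources used here do not give the age of the animals behind these libraries or whether several animals were pooled. Whether replicates came from separate animals or cultures is also not given, so the errors below refer to these samples only. An SD is the spread of the 2 libraries of a group. An SE was derived from the edgeR fit, as the absolute log2 fold change divided by the square root of its F statistic. That fit shares information on spread across genes and both groups.

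Limb buds grow from lateral plate mesoderm whose mesenchyme is patterned by homeodomain and T-box transcription factors. Prrx1 and Prrx2 mark the early mesenchyme as a whole, Tbx5 belongs to the forelimb and Pitx1 with its target Tbx4 to the hindlimb, and Meis1, Meis2 and Shox2 act in the proximal part of the limb. Barx1 is a homeodomain factor of jaw, stomach and joint-forming mesenchyme, and stromal cells cultured from long bones keep parts of this positional code after development. m6A is most often placed at the adenosine of the sequence GGAC, and in mRNA it lies mainly near the stop codon and in the 3′UTR.

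In the wild-type cells, 4 of the 10 genes carried an m6A peak. For each of their 6 peaks, the GGAC within the peak closest to its summit is shown here on the transcript strand. GGAC, the sequence in which m6A is most often found, is in capitals with 10 bases on either side.
Prrx1 peak 1: ctctcctgggGGACagcctctccg
Prrx1 peak 2: taaaatattgGGACcatggcggag
Pitx1 peak 1: tacaccaatgGGACatggcgggga
Tbx15 peak 1: gcctgtggaaGGACagggtgagaa
Shox2 peak 1: actctgcgctGGACccgggatccc
Shox2 peak 2: agggaaaaaaGGACgttcatacaa
On mm9 these stretches lie at chr1:165187897-165187920 and chr1:165178243-165178266 for Prrx1, chr13:55927058-55927081 for Pitx1, chr3:99157277-99157300 for Tbx15, and chr3:66777385-66777408 and chr3:66776717-66776740 for Shox2. Tbx15 is on the plus strand and the other 3 genes are on the minus strand. The first Prrx1 stretch is coding sequence, and the other 5 are in a 3′UTR.

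The libraries held 23978099 to 34106693 estimated counts. Reads of Mettl3 itself were at 17.6 and 16.9 counts per 1000000 counts (CPM) in WT and at 17.5 and 16.3 CPM in cKO, a log2 fold change of -0.03 (SE 0.0929, adjusted p = 0.824, edgeR quasi-likelihood test). The count covers the undeleted exons too, so this value does not check the genotype labels. The WT libraries differed from each other far more than the cKO libraries did, with a chi-square of 32.6 times its expectation over 15223 genes against 1.82 times over 14742 genes. Both groups held stromal RNA, with a summed level of 8 stromal markers of 800 to 901 CPM in WT and 820 to 828 CPM in cKO, and Lepr, a defining marker of adult marrow stroma, was at 1.09 and 1.24 CPM in WT and at 0.825 and 0.596 CPM in cKO. Macrophage RNA was also present in every library, at 17370 and 22012 CPM over 7 markers in WT and 23080 and 23220 CPM in cKO. In bulk RNA of such a culture, fewer cells of a type and less RNA per cell cannot be told apart.

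Among the 9 fitted genes, 2 were higher in cKO past an adjusted p of 0.05 (Prrx1 and Meis2), 5 were lower (Barx1, Prrx2, Pitx1, Tbx5 and Tbx15), and Shox2 and Meis1 did not pass. Over all 15327 genes fitted, 30.5% passed, 13.7% as higher and 16.8% as lower, and the libraries of the groups did not overlap for 68.9%. The median log2 fold change was -0.86 over the 9 genes and -0.0038 over all genes fitted. Since the genes were picked with this contrast known, nothing is read from these counts. Barx1 and Tbx5 had also passed the filter only through WT, where they were high, and so had to differ.

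**Figure D1:**
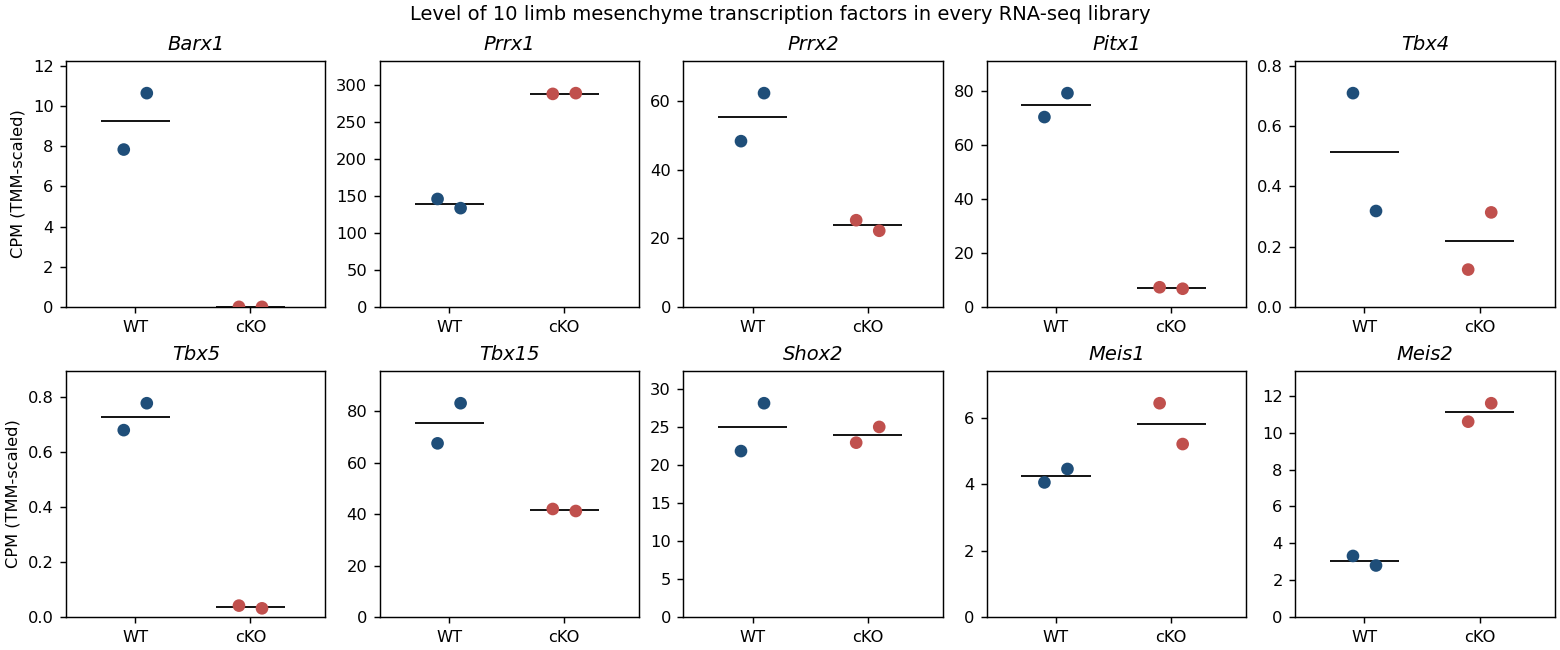
Level of each of the 10 transcription factors in CPM (TMM-scaled, linear axes starting at 0) in the 2 WT and 2 cKO libraries; points are libraries and lines are group means. Barx1 lies at 0 in both cKO libraries, Pitx1 stands between 70.3 and 79.2 CPM in WT and between 6.71 and 7.26 CPM in cKO, and the Shox2 points of the groups overlap.

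Barx1 (ENSMUSG00000021381, GRCm38 chr13:48662998-48666507) had 265 and 301 counts in the WT libraries and 0 counts in both cKO libraries. This corresponded to 7.84 and 10.6 CPM in WT, and both WT libraries lay well above the cKO libraries. Against a floor of 3 counts over the cKO group, which is 0.0535 CPM, Barx1 was at least 171-fold lower in cKO. The bound covers counting error only.

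The paired-related homeodomain genes Prrx1 and Prrx2, which act redundantly in skeletal development, differed in opposite directions. Prrx1 (ENSMUSG00000026586, chr1:163245119-163313710) was at 146 and 134 CPM in WT and at 288 and 289 CPM in cKO. Both cKO libraries were above both WT libraries, with a log2 fold change of 1.05 (SE 0.0667, n = 2 per group). Prrx2 (ENSMUSG00000039476, chr2:30834972-30881251) was at 48.3 and 62.3 CPM in WT and at 25.3 and 22.2 CPM in cKO. Here both cKO libraries were below both WT libraries, and the log2 fold change was -1.22 (SE 0.137). The scatter of Prrx2 was wider in WT (55.3 ± 9.90 CPM, SD, n = 2) than in cKO (23.7 ± 2.17 CPM).

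Pitx1 (ENSMUSG00000021506, chr13:55825051-55836192), the homeodomain factor that specifies hindlimb identity, was at 70.3 and 79.2 CPM in WT and at 7.26 and 6.71 CPM in cKO. It was 10.7-fold lower in cKO, a log2 fold change of -3.42 (SE 0.1003), and the cKO libraries still held 176 and 214 counts. Thus, unlike Barx1, Pitx1 was reduced and remained well above the counting floor.

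Of the paralogous T-box genes, Tbx4 of the hindlimb and Tbx5 of the forelimb were close to the detection limit. Tbx4 (ENSMUSG00000000094, chr11:85886422-85916097) had 24 and 9 counts in WT and 3 and 10 counts in cKO. The lower WT library, at 0.318 CPM, was next to the higher cKO library, at 0.314 CPM. Summed over each group, WT stood to cKO at a ratio of 2.29 on the CPM scale, with a 95% exact binomial interval of 1.18 to 4.75 that covers counting error only, and Tbx4 was not fitted. Tbx5 (ENSMUSG00000018263, chr5:119832668-119885219) had 23 and 22 counts in WT and 1 count in each cKO library. The WT to cKO ratio was 20.3, with a counting interval of 5.31 to 173. Both factors were thus measured in WT cells taken from hindlimb bones only at a level below 1 CPM, including Tbx4, whose upstream factor Pitx1 was among the most abundant of the 10 genes.

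Tbx15 (ENSMUSG00000027868, chr3:99240381-99354259), a T-box factor of skeletal and adipose precursors, was at 67.6 and 83.2 CPM in WT and at 42.0 and 41.2 CPM in cKO. All WT values exceeded all cKO values, and the log2 fold change was -0.86 (SE 0.106). It was thus the T-box gene of the group that was clearly expressed in both genotypes.

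Shox2 (ENSMUSG00000027833, chr3:66971727-66981771), which promotes growth of the proximal long bones, was at 21.8 and 28.1 CPM in WT and at 22.9 and 25.0 CPM in cKO. Both cKO values fell inside the WT range, and the log2 fold change was -0.06 (SE 0.134). The direction depended on the libraries and the scale. Without WT 1 the log2 fold change was -0.22, without WT 2 it was 0.14 and without cKO 1 it was 0.0033. In the deposited normalized values it was 0.23, where the median over all genes fitted was 0.0965. Shox2 shares 382 bases with Rsrc1 on the opposite strand, which had 1041 to 1499 counts per library, and whether counting used the strand is not given in the sources used here.

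Meis1 and Meis2 encode TALE homeodomain proteins that bind DNA with other homeodomain partners and mark the proximal limb. Meis1 (ENSMUSG00000020160, chr11:18879817-19018985) was at 4.05 and 4.46 CPM in WT and at 6.44 and 5.21 CPM in cKO. Its cKO values were both above its WT values, but the log2 fold change of 0.45 (SE 0.175) did not pass the threshold. With 1 library left out, the log2 fold change of Meis1 lay between 0.29 and 0.60. Meis2 (ENSMUSG00000027210, chr2:115863064-116065839) was at 3.31 and 2.79 CPM in WT and at 10.6 and 11.6 CPM in cKO. The Meis2 libraries were widely separated, with a log2 fold change of 1.86 (SE 0.1502), or 3.64-fold higher in cKO.

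Levels of different genes were compared per length, in transcripts per 1000000 (TPM), the scale of the deposited normalized values. In WT, Prrx2 came first with 57.7 and 72.6 TPM, followed by Pitx1 with 42.9 and 47.0 TPM, Prrx1 with 42.4 and 37.9 TPM and Tbx15 with 29.5 and 36.3 TPM. Pitx1 and Prrx1 differed by less than the sum of their SDs, and so did Prrx1 and Tbx15. Shox2 (12.3 and 14.7 TPM) and Barx1 (9.06 and 11.9 TPM) formed the middle of the order and were also closer than their summed SDs. Meis1 (1.76 and 2.13 TPM) and Meis2 (1.74 and 1.58 TPM) were low and not separated by that measure, and Tbx5 (0.24 and 0.45 TPM) and Tbx4 (0.33 and 0.15 TPM) overlapped at the bottom.

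The order in cKO was different at the top and in the middle. Prrx1 was first with 86.4 and 88.5 TPM, ahead of Prrx2 with 30.4 and 27.3 TPM, Tbx15 with 18.6 and 19.4 TPM and Shox2 with 15.5 and 16.2 TPM. Meis2 (5.30 and 6.18 TPM) stood above Pitx1 (4.57 and 4.24 TPM), the reverse of their WT order, and Meis1 followed with 2.81 and 2.45 TPM. Tbx4 (0.06 and 0.16 TPM) and Tbx5 (0.15 and 0.01 TPM) overlapped, and Barx1 was listed at 0. For Tbx5 the TPM values of the cKO libraries differed although each rested on 1 count, so TPM resolves nothing at this depth. The summed level of the 10 genes was 198 and 224.7 TPM in WT and 163.7 and 164.5 TPM in cKO. Prrx1 supplied 21.4% and 16.9% of this sum in WT and 52.7% and 53.8% in cKO, whereas Pitx1 went from 21.7% and 20.9% to 2.79% and 2.58%.

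**Figure D2:**
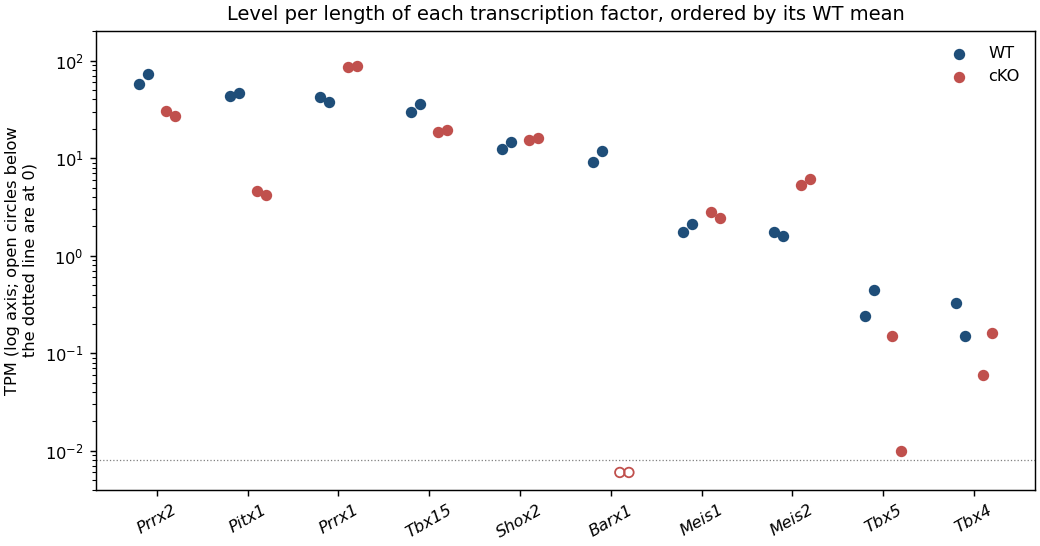
Level per length of each of the 10 transcription factors, in TPM on a log axis, in the 2 WT and 2 cKO libraries, ordered by the WT mean; open circles below the dotted line are libraries at 0. Prrx1 tops the cKO order at 86.4 and 88.5 TPM, and the 2 cKO values of Barx1 are the open circles.

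The 5 genes whose centred log2(CPM + 0.1) values over the 4 libraries lay closest to those of Barx1 were Ppp1r1b (Euclidean distance 0.227), Hapln1 (0.261), Gprc5a (0.380), Kcne4 (0.449) and Lum (0.569). With 4 libraries in 2 groups, this likeness is mainly the size of the difference between the groups. Ppp1r1b, a phosphatase inhibitor, was at 20.2 and 28.7 CPM in WT and at 0.124 and 0.126 CPM in cKO. With 3 and 4 counts in cKO, Ppp1r1b passed the filter only through WT, where it was high, and so had to differ. Hapln1, a link protein of cartilage matrix, was at 130 and 167 CPM in WT and at 1.57 and 1.22 CPM in cKO. Lum, a small leucine-rich proteoglycan, was at 159 and 206 CPM in WT and at 1.40 and 1.13 CPM in cKO. Since Barx1 is known in cKO only up to its bound, the distances depend on the added 0.1.

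Markers of cartilage moved in the same direction as Barx1, Prrx2, Pitx1 and Tbx15. The summed level of 8 chondrocyte markers was 4330 and 4427 CPM in WT and 259 and 263 CPM in cKO, and 7 of the 8 were lower past an adjusted p of 0.05. Of 3 joint markers, with sums of 74.1 and 78.5 CPM against 5.45 and 4.68 CPM, both that were fitted were lower, Prg4 and Gdf5. Of these, Gdf5 passed the filter only through WT. Erg, with 2 and 7 counts in WT and 0 in both cKO libraries, was near the floor in both groups and not fitted. Of 7 fitted osteoblast markers 6 were lower, although their sum differed widely between the WT libraries (8059 and 16929 CPM, against 7090 and 7060 CPM in cKO). Neither of 2 fitted tendon markers passed. Adipocyte markers moved with Prrx1 and Meis2, and all 7 were higher, at summed levels of 620 and 639 CPM in WT and 1115 and 1140 CPM in cKO. The 7 macrophage markers included 3 that were higher and none that was lower, and the 8 stromal markers were divided into 3 higher and 3 lower. Of 2 fitted endothelial markers, Kdr was higher and Cdh5 did not pass. The list sums were 2.48 to 3.34 CPM in WT and 9.48 to 10.9 CPM in cKO. Most of this was Kdr, at 2.46 and 1.77 CPM in WT and 9.91 and 8.85 CPM in cKO. Cdh5 went the other way, from 0.414 and 0.389 CPM to 0.165 and 0.188 CPM. So did Pecam1, from 0.266 and 0.248 CPM to 0.165 and 0.157 CPM. Tek rose from 0.207 and 0.0708 CPM to 0.619 and 0.282 CPM. Neutrophil markers summed to at most 3.64 CPM, with Mpo, Ngp and S100a9 at 0 in all 4 libraries and S100a8, the 1 marker fitted, lower. Erythroid markers summed to at most 0.126 CPM and none was fitted. Beside these counts, 13.7% of all genes fitted were higher and 16.8% lower. The part of these cell types in the levels of the 10 genes was not tested.

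**Figure D3:**
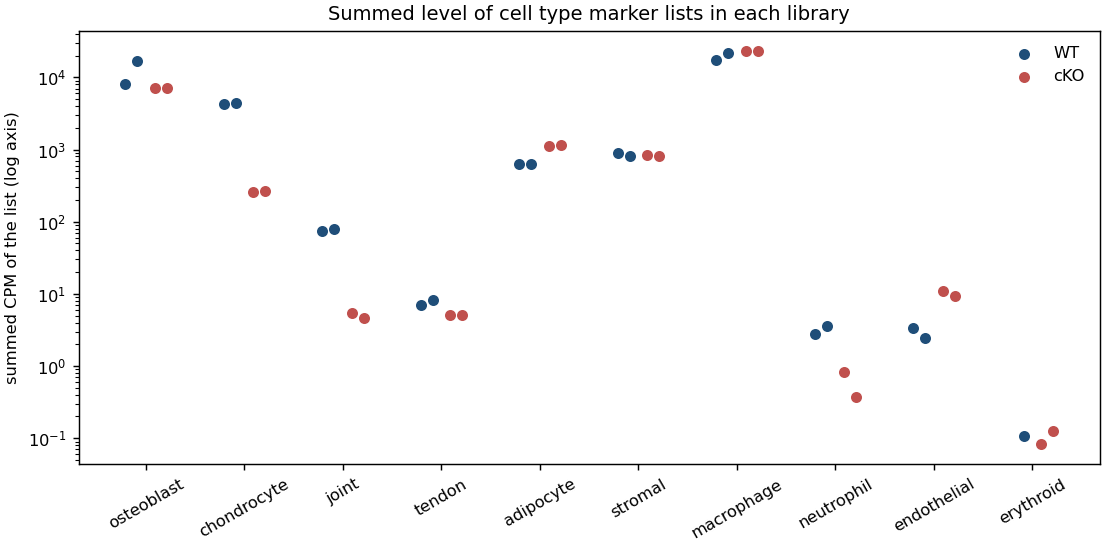
Summed CPM of 10 lists of cell type markers (log axis) in the 2 WT and 2 cKO libraries, each point a library. Chondrocyte markers lie at 4330 and 4427 CPM in WT and at 259 and 263 CPM in cKO, and the erythroid sum of WT 1 is 0 and therefore not drawn.

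The wider limb programme was described with 3 lists that do not contain the 10 genes: family relatives, TALE partners and other limb bud transcription factors. Of 54 genes listed, 36 were fitted, of which 9 were higher in cKO, 8 were lower and 19 did not pass, with a median log2 fold change of 0.09. For these counts and those of the single lists below, the shares over all genes fitted were 13.7% higher and 16.8% lower. The lists were made with earlier results of these data known.

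Family relatives numbered 19, of which 6 were fitted, 1 was higher, none was lower, and the median log2 fold change was 0.43. The 1 gene was Tbx1, a T-box factor of the pharyngeal apparatus, with 0 and 1 counts in WT and 26 and 28 counts in cKO. Its cKO to WT ratio was 59.8, with a 95% counting interval of 10.3 to 2403. Tbx1 passed the filter only through cKO, where it was high, and so had to differ. The relatives with the highest levels, Meis3 (18.3 and 19.4 CPM in WT, 17.9 and 17.7 CPM in cKO, adjusted p = 0.524) and Tbx18 (17.5 and 23.9 CPM in WT, 23.0 and 23.8 CPM in cKO, adjusted p = 0.406), did not pass. For Tbx18 the log2 fold change of 0.18 depended on the WT libraries, as it became 0.42 without WT 2 and -0.02 without WT 1. The Meis genes thus gave log2 fold changes of 1.86 for Meis2, 0.45 for Meis1 and -0.08 for Meis3. In the deposited normalized values Meis3 was at 0.08, where the median over all genes fitted was 0.0965.

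The TALE partners listed were 8 Pbx, Pknox and Tgif genes, which form complexes with Meis proteins or belong to the same homeodomain class. All 8 were fitted, and 2 were higher and none lower, with a median log2 fold change of 0.11. The list does not hold every gene of the TALE class. Irx3 and Irx5 were counted with the other limb bud transcription factors and were lower, and Mkx, counted with the tendon markers, did not pass. Pknox2 was at 2.31 and 2.02 CPM in WT and at 12.7 and 10.9 CPM in cKO, and it rose by 2.44 on the log2 scale (SE 0.162, adjusted p = 0.000178). The TALE partners with the highest mean TPM over the 4 libraries were Tgif1 and Pbx2. Tgif1, a TALE repressor, had a log2 fold change of -0.04 (adjusted p = 0.644). In the deposited normalized values it was 0.05, where the median over all genes fitted was 0.0965. Pbx2 had a log2 fold change of 0.27 (adjusted p = 0.0606) that passed with no filter on low counts. It was 0.17 without WT 1 and 0.37 without WT 2.

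The list of 27 other limb bud transcription factors had 22 fitted genes, of which 6 were higher and 8 lower, with a median log2 fold change of -0.21. Both odd-skipped related genes, which act in joint and connective tissue precursors, were among the higher ones. Osr2 was at 0.710 and 0.849 CPM in WT and at 11.47 and 11.04 CPM in cKO (log2 fold change 3.85, SE 0.177, adjusted p = 4.2e-05), and Osr1 was at 2.87 and 3.29 CPM in WT and at 11.4 and 12.6 CPM in cKO (1.97, SE 0.144, adjusted p = 0.000265). Hic1, a marker of quiescent mesenchymal progenitors, rose by 1.57 on the log2 scale (SE 0.136, adjusted p = 0.000515). Twist1, a basic helix-loop-helix factor of early mesenchyme, rose from 12.6 and 15.9 CPM to 35.9 and 41.2 CPM (1.44, SE 0.135, adjusted p = 0.00071). Hand2, which acts upstream of Shh in the posterior limb bud, had 15 and 0 counts in WT and 108 and 139 counts in cKO. Hand2 also passed the filter only through cKO, and it was not called in DESeq2. Snai2, named after its values were seen, was the sixth.

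Among the lower genes, Lmx1b, the determinant of dorsal limb identity, was at 4.97 and 4.81 CPM in WT and at 0.206 and 0.188 CPM in cKO (log2 fold change -4.61, SE 0.279). It passed the filter only through WT, where it was high, and so had to differ. Dlx5, a homeodomain factor of osteoblast and limb development, was at 19.9 and 23.9 CPM in WT and at 4.37 and 3.55 CPM in cKO (-2.47, SE 0.155, adjusted p = 0.00014). Isl1, a LIM homeodomain factor that acts in hindlimb initiation, fell from 2.22 and 2.30 CPM to 0.413 and 0.596 CPM (-2.13, SE 0.309, adjusted p = 0.00389). Msx2, which acts in limb and skull mesenchyme, fell by 1.34 on the log2 scale (SE 0.173, adjusted p = 0.00256), and Irx3, the gene of this list with the highest mean TPM over the 4 libraries, though not within cKO, fell by 0.79 (SE 0.0649, adjusted p = 0.000412). The other 3 lower genes, named after their values were seen, were Irx5, Msx1 and Twist2, with log2 fold changes between -0.74 and -0.42. Irx5 and Msx1 did not pass in DESeq2. The Twist genes differed in sign, as Prrx1 and Prrx2 did.

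**Figure D4:**
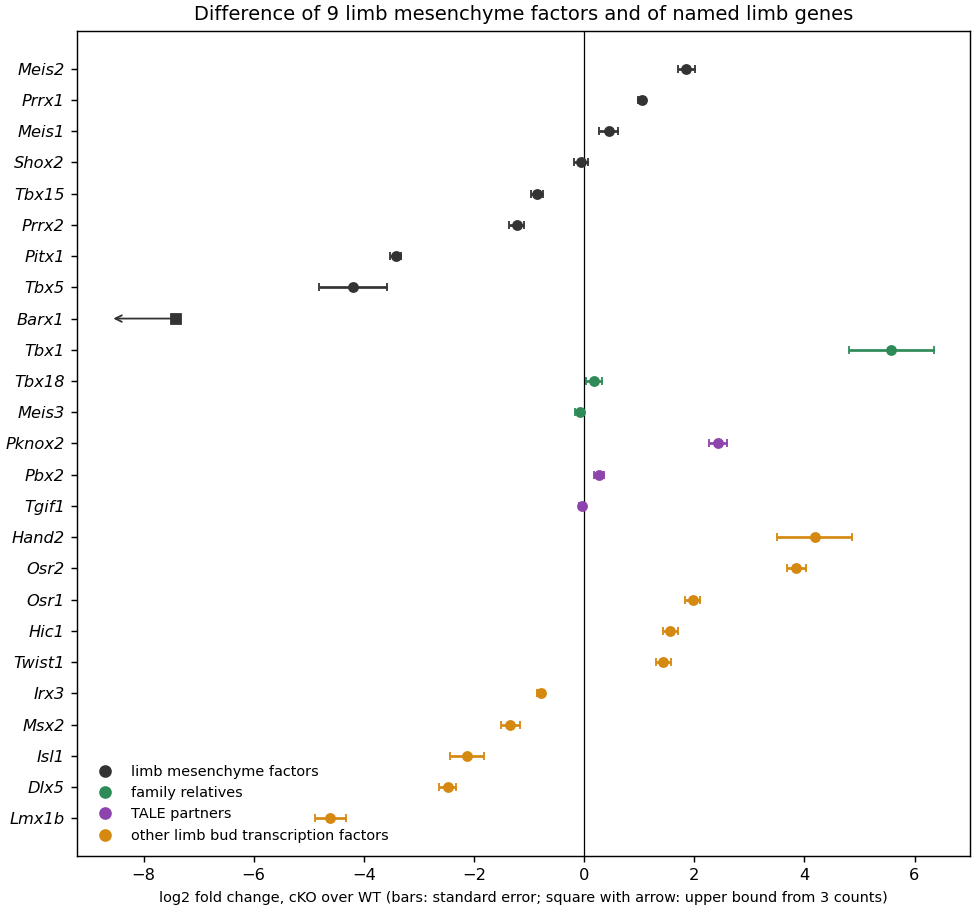
Log2 fold change of cKO over WT (points, bars are standard errors, n = 2 per group) for 9 of the 10 transcription factors and for the genes of the 3 limb lists with a difference of at least 1 on the log2 scale or the highest mean TPM over 4 libraries; the square with an arrow is the bound for Barx1 from a floor of 3 counts. Differences run from a bound of -7.41 for Barx1 to 5.58 for Tbx1, a value fitted from 1 WT count that depends on the prior count.

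Methylation of the 10 genes was measured in wild-type cells only, in samples that do not enter the comparison of cKO with WT. The list has 10160 peaks with a median pileup of 60 fragments, a median fold enrichment of 4.03 and a median −log10 q of 14.15, and it is 1 list for 4 samples, without replicate error. Whether the samples were pooled for peak calling is not given in the sources used here. By their summits, 6 peaks fell on Prrx1, Pitx1, Tbx15 and Shox2, and none on Barx1, Prrx2, Tbx4, Tbx5, Meis1 or Meis2.

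The most enriched peak was the first of Shox2 (mm9 chr3:66777231-66777745), in the 3′UTR 184 nt past the stop codon, with a pileup of 116 fragments, a fold enrichment of 7.13 and a −log10 q of 54.6. Of all peaks in the list, 99.5% had a lower −log10 q. It held 7 GGAC, the closest 5 nt from the summit. The second Shox2 peak (chr3:66776667-66776882) lay 741 nt past the stop codon and was weaker, with a fold enrichment of 3.31 and a −log10 q of 8.33. Shox2 was thus the gene whose peak had the highest −log10 q of the 6, and its libraries overlapped between WT and cKO on the CPM scale but not in TPM.

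Prrx1 had a peak in exon 3 of 4 (chr1:165187307-165188110), with its summit 184 nt before the stop codon, and another in exon 4 (chr1:165178184-165178630), 72 nt before the stop codon in the transcript used and in the 3′UTR of another transcript. Both were shallow in enrichment. The fold enrichment was 1.89 and 2.65, and 1.96% and 15.2% of peaks in the list had a lower one, while the pileups of 78 and 79 fragments were above the median. Pitx1 had 1 peak in its 3′UTR (chr13:55926917-55927170), 425 nt past the stop codon, with a fold enrichment of 4.75 and a −log10 q equal to the median of 14.15 at this rounding. The Tbx15 peak (chr3:99157002-99157345) also lay in the 3′UTR, 734 nt past the stop codon, with a pileup of 30 fragments, a fold enrichment of 3.09 and a −log10 q of 5.14. Taking peaks above the median −log10 q left 1 peak on 1 gene, the first of Shox2.

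**Figure D5:**
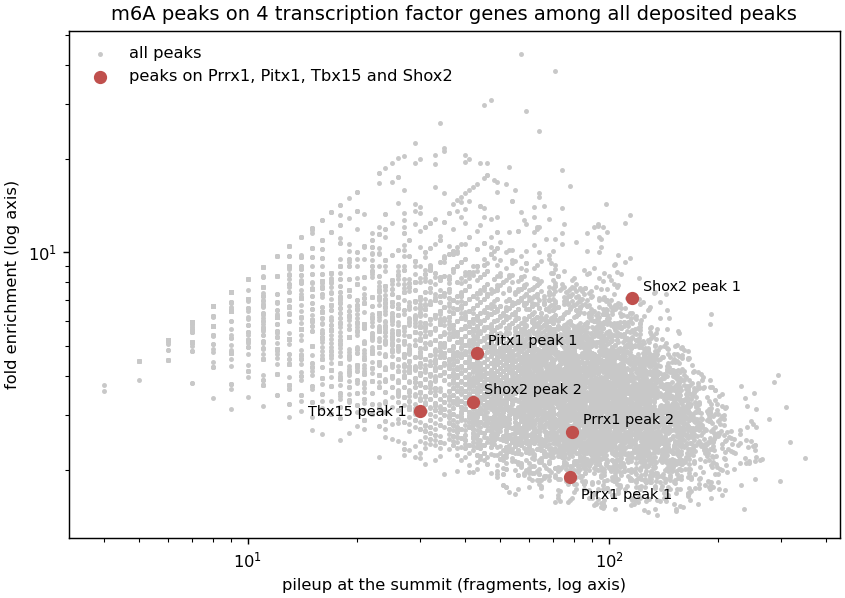
Pileup at the summit against fold enrichment (both log axes) for all 10160 deposited m6A peaks (grey) and for the 6 peaks on Prrx1, Pitx1, Tbx15 and Shox2 (red). The first Shox2 peak is at 116 fragments and 7.13-fold. Of all peaks, 1.96% have a lower fold enrichment than Prrx1 peak 1 and 15.2% a lower one than Prrx1 peak 2.

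A GGAC inside the peak lay within 100 nt of the summit for 4 of the 6 peaks. Of the 8489 peaks whose summit is in exactly 1 gene, 80.1% had a GGAC within 100 nt, searched also past the peak ends. In the 2 others, the second peaks of Prrx1 and Shox2, the nearest inside the peak was 210 nt and 106 nt away. The second Shox2 peak ends less than 100 nt from its summit on 1 side, so its window was not searched in full. The genes without a peak did not lack the sequence. The Barx1 transcript held 9 GGAC in 1399 nt, or 6.43 per kb, of which 6 were in the 3′UTR. The Meis1 and Meis2 transcripts held 15 and 20, or 7.94 and 7.06 per kb, above the 3.03 per kb of Prrx1, which had 2 peaks. These densities depend on the 3′UTR of the transcript used. Counted with the stop codon, it had 13 nt without GGAC for Meis1, 1166 nt for Meis2 and 3145 nt for Prrx1. In coding sequence Meis1 had 13 GGAC in 1395 nt, Meis2 11 in 1431 nt and Prrx1 7 in 735 nt. Prrx2 had 6 GGAC and none in its annotated 3′UTR, of 314 nt with the stop codon.

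The share of genes with a peak also varied with the level of the transcript. Of 14118 fitted genes that were found in the mm9 annotation, 41.95% had a peak. Among genes within 1.5-fold of the WT level of Barx1, 52.8% had one, and the share was 45.5% at the level of Prrx2 and 32.9% and 30.5% at those of Meis1 and Meis2. It was 14.2% and 15.1% at the levels of Tbx4 and Tbx5. At the levels of the genes with a peak it was 49.8% for Prrx1, 49.6% for Pitx1, 49.8% for Tbx15 and 52.9% for Shox2. The absence of a listed peak on Barx1 and Prrx2 was therefore shared by about as many genes of their level as not, and for the low genes it was the more frequent state. Genes with and without a peak each included higher and lower members in cKO: Prrx1 was higher and Pitx1 and Tbx15 lower among those with a peak, and Meis2 was higher and Barx1, Prrx2 and Tbx5 lower among those without.

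Promoter sequences of RefSeq (GRCm38.p6, 300 bases around each start) were held for 7 of the 10 genes, the others being Pitx1, Tbx5 and Tbx15. The windows of Prrx2 (chr2:30845117-30845416), Tbx4 (chr11:85896515-85896814) and Meis2 (chr2:116064570-116064869) belong to starts inside the gene. They do not reach the gene start in the positions given above. The Barx1 promoter stood out in base composition, with a GC content of 84.7% and 50 CpG, and 99.84% of 32851 promoters had a lower GC content. Prrx2 followed with 70.3% GC and 28 CpG, and the other 5 lay between 47.7% and 59.0%, around the median of 52.7% for all promoters. TAAT, the core that most homeodomains bind, occurred on either strand in the promoters of Prrx1, Meis2 and Shox2, and in 58.0% of all promoters. TATAAA occurred in those of Meis2, Shox2 and Tbx4, and in 13.6% of all. Neither TGACAG, bound by Meis proteins, nor AGGTGT, bound by T-box proteins, was found in the 7 windows, against 19.2% and 13.7% of all promoters.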

How the data were processed

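The 10 genes and all lists were chosen with earlier results of these data known. RNA-seq covered 2 WT and 2 cKO libraries, MeRIP-Seq 2 inputs and 2 m6A immunoprecipitates. The authors mapped RNA-seq reads with HISAT2 (version 2.0.4 in the submitters' processing notes, which also name TopHat and MACS2) and deposited estimated counts per gene, in GRCm38 positions, and values headed FPKM that sum to 1000000 per library and are thus TPM. For MeRIP-Seq the authors deposited 1 mm9 peak list with, per summit, the pileup signal, the fold enrichment as a ratio and −log10 of the q-value (its header is damaged and was read by its place in MACS2 output; −log10 of p was not used). The authors' paper tested genes with Ballgown.

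Estimated counts (23978099 to 34106693 per library) were rounded. The 89 entries without a gene name, 0.11% to 0.125% of counts, were left out. Genes were filtered (filterByExpr, minimum count 10), TMM-scaled and tested with edgeR 4.0.16 in R 4.3.3 (glmQLFTest, two-sided, Benjamini-Hochberg over 15327 genes). An exact permutation test of 2 against 2 cannot go below 0.333. The procedure was checked on simulated counts. No molecular identifiers were used, so duplicate reads may come from 1 molecule and the intervals and floors reflect counting error alone. The depth of the MeRIP-Seq samples is unknown.

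Summits were placed on GENCODE vM1 genes, and GGAC was searched on the transcript strand. Distances of summits to the stop codon were counted from the last coding base before it, and 3′UTR lengths include the stop codon. Beside the 10 genes and Mettl3, the genes named were those of each limb list with an adjusted p under 0.05 and an absolute log2 fold change of at least 1, the 2 with the highest mean TPM of each list, and the 5 nearest to Barx1. Others were named after their values were seen, and 1 gene of the lists is counted but not reported here. Alternatives were DESeq2 1.42.0, size factors by median of ratios, limma 3.58.1 (log2 of TPM + 0.1), ordinary linear models (log2 of TPM + 1), no filter, a replicate block, each library left out, the cKO libraries summed, and for peaks any overlap with the gene and a stricter threshold.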

Additional observations from a re-analysis of the deposited data

How the results depend on the processing

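Of the 9 fitted transcription factors, 8 kept the direction of their difference in all 11 alternatives. Shox2 (-0.06) turned to 0.23 with limma on log2(TPM + 0.1), to 0.22 in the ordinary linear model on log2(TPM + 1), to 0.14 without WT 2 and to 0.0033 without cKO 1, over a range of -0.22 to 0.14 when 1 library was left out. Among listed genes, Meis3 turned to 0.0783 and 0.0754 and Tgif1 to 0.0466 and 0.0460 with limma and the linear model. The median over all genes also shifted in these 2 settings, to 0.0965 and 0.0778, from -0.0038 in the main fit. The turned values of Meis3 and Tgif1 were thus no higher than that median. Tbx18 turned to -0.0247 without WT 1 (range -0.0247 to 0.418 with 1 library left out). The linear model called 0 of the 10 genes (0 higher, 0 lower, 6 of 9 at an unadjusted p under 0.05), 0 of the listed limb genes (0 higher, 0 lower, 17 of 36 unadjusted) and 65 of all genes (27 higher, 38 lower, 4218 unadjusted), against 7, 17 and 4677 in edgeR. Limma gave 1442 lower genes, against 2577. Tbx5 also lost its call with limma.

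Over all genes, leaving out 1 library gave 724 to 4226 higher, 1165 to 4493 lower and 1889 to 8719 called genes: 8719 without WT 1, 7927 without WT 2, 1930 without cKO 1 and 1889 without cKO 2. The lone sample is then assumed to vary like the other group. With the cKO libraries summed, 752 were higher and 1229 lower, 1981 in all. For the listed limb genes, leaving out 1 library gave 9 to 15 higher and 5 to 10 lower genes: 14 and 15 higher without WT 1 and WT 2, and 5 lower without cKO 1. Above the median −log10 q, 1 peak on 1 gene was left.

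The groups share replicate numbers, and the deviations of same-numbered libraries had a correlation of 0.0264. This value cannot decide whether the numbers mark pairs, because the cKO libraries differed little beyond counting noise (chi-square 1.82 times its expectation). With the replicate number as a block, 4881 genes passed (2253 higher, 2628 lower), with 7 of the 10 genes and 19 listed limb genes among them. Depth limits Tbx4 and Tbx5, with at most 24 counts per library, and Barx1 in cKO, where only a bound is known.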
